A study of Mus musculus with 10 samples.

Results

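The genes described here are 10 close neighbours of Ucp2 on mouse chromosome 7: Lipt2, Pgm2l1, P4ha3, Ppme1 and C2cd3 before it, and Dnajb13, Coa4, Rab6a, Plekhb1 and Relt after it, in the order of the RefSeq table of assembly GRCm38.p6. They were picked for their place on the chromosome and share no function, and each matched 1 probe set (the group of array probes that measures one gene) of the 23111 named ones in the deposited table. The choice was made with the differences between genotypes in these same arrays already known, so the values that compare the genotypes are given as a description. Counts of members past a threshold stand beside those of all genes, and no member is given a p-value for the genotypes. Lipt2 lies 8 measured genes before Ucp2 and Relt 7 after it, and 5 other measured genes lie in between.

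The samples were 10 colon tumours of C57BL6/J mice, of which 5 carried Ucp2+/+ (WT) and 5 Ucp2-/- (KO). All the mice had received AOM/DSS, the carcinogen azoxymethane with dextran sodium sulphate, which injures the colon lining, and tumours were taken in week 15 of that protocol. The labels number the WT samples 1 to 5 and the KO samples 6 to 10. The labels do not state how the knockout allele was made or whether each tumour came from its own mouse, so spreads and p-values describe these samples and may be technical. Each sample was read on 1 Affymetrix array, with values on a log2 scale. The median signal of an array lay between 5.83 and 5.92, and the number of arrays limits the precision. A guide to background was set at a log2 signal of 5.14, which 95% of 1088 olfactory receptor genes, a family not known for expression in colon tumours, stay under on average. All 10 epithelial markers lay above it.

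Genes that lie close together on a chromosome are inherited together. A mouse homozygous for a targeted allele therefore usually is so for the chromosome segment around it, with any sequence differences of the cells in which the allele was made, and a targeted insertion or deletion can also alter how nearby genes are transcribed. The genes beside a knocked-out gene are for this reason commonly looked at in knockout studies. Here the arrays hold RNA levels and no DNA sequence, so the origin of the segment was not tested.

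The Ucp2 probe set was first read as a check of the labels. Ucp2 encodes a carrier of the inner mitochondrial membrane. Its row has no symbol in the platform annotation and was found by its gene number. Its log2 signal was 10.8, 11.4, 11.2, 11.5 and 11.5 in WT replicates 1 to 5 and 9.97, 9.73, 9.73, 9.82 and 9.97 in KO replicates 6 to 10. The genotypes did not overlap, and KO minus WT was -1.45 ± 0.13 (SE), a 2.74-fold lower level (limma adjusted p = 0.00576 over all 23747 probe sets). The KO signal stayed well above background, and the sources used here do not say which exons the probes cover.

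The promoter windows of 3 of the neighbours are shown, and no link from their sequence to the differences was tested. Lipt2 and Pgm2l1 had the largest differences between genotypes, and the window of C2cd3 runs into that of Ppme1. All are RefSeq windows of assembly GRCm38.p6, from 250 bases before to 50 bases after the start of the gene. In the first 2 sequences capitals mark matches to any of 6 short motifs on either strand. In the C2cd3 sequence they mark the bases shared with the Ppme1 window. Lipt2 is at chr7:100159027-100159326 on the plus strand, Pgm2l1 at chr7:100227357-100227656 on the plus strand and C2cd3 at chr7:100371983-100372282 on the plus strand.
Lipt2: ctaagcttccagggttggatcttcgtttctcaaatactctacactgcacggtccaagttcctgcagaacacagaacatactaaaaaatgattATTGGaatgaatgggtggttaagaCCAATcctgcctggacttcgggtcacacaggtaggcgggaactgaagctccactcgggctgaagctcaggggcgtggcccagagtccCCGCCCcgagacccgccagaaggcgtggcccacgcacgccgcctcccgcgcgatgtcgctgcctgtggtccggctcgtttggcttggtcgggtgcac
Pgm2l1: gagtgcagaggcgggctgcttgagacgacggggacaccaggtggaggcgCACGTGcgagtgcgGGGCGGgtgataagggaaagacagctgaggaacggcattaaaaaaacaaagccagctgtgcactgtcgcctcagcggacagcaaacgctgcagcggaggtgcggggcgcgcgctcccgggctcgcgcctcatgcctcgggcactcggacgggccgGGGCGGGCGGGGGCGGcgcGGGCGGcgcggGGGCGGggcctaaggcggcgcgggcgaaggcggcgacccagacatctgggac
C2cd3: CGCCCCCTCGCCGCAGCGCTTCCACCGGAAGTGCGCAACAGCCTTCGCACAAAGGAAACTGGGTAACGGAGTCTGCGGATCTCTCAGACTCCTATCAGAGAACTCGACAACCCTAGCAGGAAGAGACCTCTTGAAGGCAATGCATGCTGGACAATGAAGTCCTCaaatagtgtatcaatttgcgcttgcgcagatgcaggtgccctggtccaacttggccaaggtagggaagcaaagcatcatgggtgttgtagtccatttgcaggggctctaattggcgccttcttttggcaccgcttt

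The motifs searched were the GC box (GGGCGG), the CCAAT box (CCAAT), the TATA box (TATAAA), the E box (CACGTG), the cyclic AMP response element (TGACGTCA) and the NRF1 motif, given here by name only. Overlapping matches were counted separately. The Lipt2 window held 1 GC box and 2 CCAAT boxes, with 58.3% G and C and 20 CpG pairs. The Pgm2l1 window held 6 GC boxes, some of which overlap, and 1 E box, with 72.0% G and C and 39 CpG pairs. The promoters of these genes thus differed in composition, and they had no searched motif in common but the GC box, which 35.7% of all 32851 promoter windows hold. A CCAAT box was in 37.4% of the windows and an E box in 7.15%.

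All 10 neighbours had a promoter sequence in the table, in 11 windows, since Plekhb1 has 2. A GC box stood in 6 of the 11 windows and a CCAAT box in 7. The TATA box, the cyclic AMP response element and the NRF1 motif stood in 0 of them, against 13.6%, 1.79% and 0.971% of all windows. The Pgm2l1 window was the richest in G and C of the 11, above 93.1% of all windows, and that of Dnajb13 the poorest, at 46.0%. Ppme1 and C2cd3 are transcribed away from each other from starts 337 bases apart, and their windows share 164 bases.

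The comparison asked which of the neighbours differ with the knockout allele. Lipt2 and Pgm2l1 had less signal in KO tumours than in WT tumours, by 1.60-fold and 1.79-fold. The other 8 neighbours differed by at most 1.26-fold, 5 of them with the higher mean in KO and 3 with the lower. By limma, a linear model with a spread estimate shared over genes, 2 of the 10 were at unadjusted p under 0.05, where 4.77% of all genes tested were. The genotypes did not overlap in 1 of the 10, where this held for 0.835% of all genes. Because the members were chosen with this contrast known, nothing is read from these shares. After Benjamini-Hochberg adjustment 0 of the 10 and 0 of all 23111 genes passed 0.05, against 1103 genes at unadjusted p under 0.05, and the other settings called 0 to 3 genes. Without WT replicate 3 the adjusted count was 2, and without KO replicate 8 it was 1. Ucp2, whose row has no symbol, is not among the 23111 genes and entered only the count with all probe sets.

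Lipt2 encodes the octanoyltransferase that opens the synthesis of lipoate, the cofactor of the pyruvate and 2-oxoglutarate dehydrogenases, in mitochondria. Its log2 signal was 7.90, 8.18, 8.00, 8.54 and 8.46 in WT replicates 1 to 5. In KO replicates 6 to 10 it was 7.57, 7.16, 7.47, 7.86 and 7.64. The highest KO tumour, replicate 9, lay just under the lowest WT tumour, replicate 1, so the groups did not overlap. The mean was 8.22 ± 0.28 (SD, n = 5) for WT and 7.54 ± 0.26 for KO, with a difference of -0.68 ± 0.15 (SE). Of all genes tested, 26 had a more negative difference. In pieces of whole tumour, fewer cells that express a gene and less RNA per cell cannot be told apart.

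Pgm2l1 encodes an enzyme of the phosphohexomutase family that makes glucose 1,6-bisphosphate, an activator of sugar phosphate mutases. It read 8.14, 9.02, 8.66, 8.29 and 9.21 in WT replicates 1 to 5 and 8.33, 7.38, 7.25, 7.84 and 8.33 in KO replicates 6 to 10. All 5 KO tumours lay under the WT median of 8.66, and 3 lay under the lowest WT tumour. KO replicates 6 and 10 lay among the WT tumours. The means were 8.67 ± 0.46 (SD, n = 5) in WT and 7.83 ± 0.51 in KO, and the difference was -0.84 ± 0.27 (SE). Its difference was larger than that of Lipt2 and its spread between tumours was wider.

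**Figure D1:**
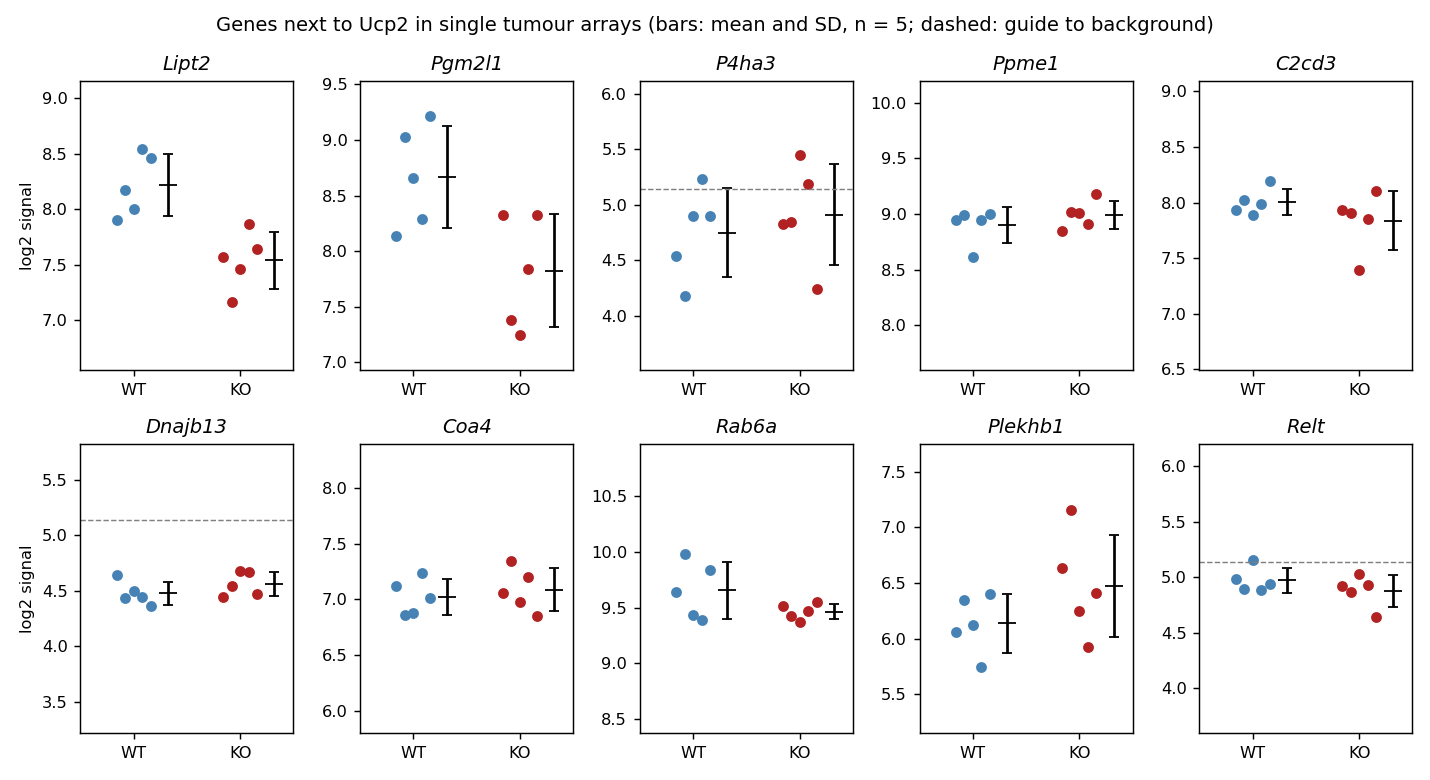
Log2 signal (vertical axis) of each of the 10 neighbours in the 5 WT and 5 KO tumours, 1 point per array, with the mean and SD of each genotype beside the points and an equal span of log2 units in every panel. The Lipt2 points of the genotypes do not overlap, those of Pgm2l1 overlap in KO replicates 6 and 10, and the other 8 panels show WT and KO points intermixed; the dashed line is the guide to background of 5.14.

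Macrophage markers differed along with these genes. All 8 had more signal in KO at unadjusted p under 0.05 by limma, where 2.22% of all genes did, and 0 passed the adjusted threshold. The markers were chosen with earlier results of these data known, so nothing is read from this count. The macrophage score, the mean deviation of the markers from their averages, ran from -0.312 to -0.0377 in WT and from -0.0223 to 0.508 in KO, so it did not overlap either. With this score as a covariate the difference was -0.43 ± 0.27 (SE) for Lipt2 and -0.34 ± 0.47 for Pgm2l1, and 0 of the 10 neighbours stayed at unadjusted p under 0.05. The signs of Ppme1, Coa4 and Plekhb1 turned, to -0.07 ± 0.16, -0.04 ± 0.20 and -0.12 ± 0.35. Because the score itself separated the genotypes, this fit cannot tell genotype from score. Its SE for Lipt2 and Pgm2l1 were also wider than the 0.15 and 0.27 without the score. The part of macrophages in the differences was not tested. With the epithelium score, whose range was -0.325 to 0.148 in WT and -0.0632 to 0.119 in KO, the differences were -0.66 ± 0.16 and -0.71 ± 0.22.

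**Figure D2:**
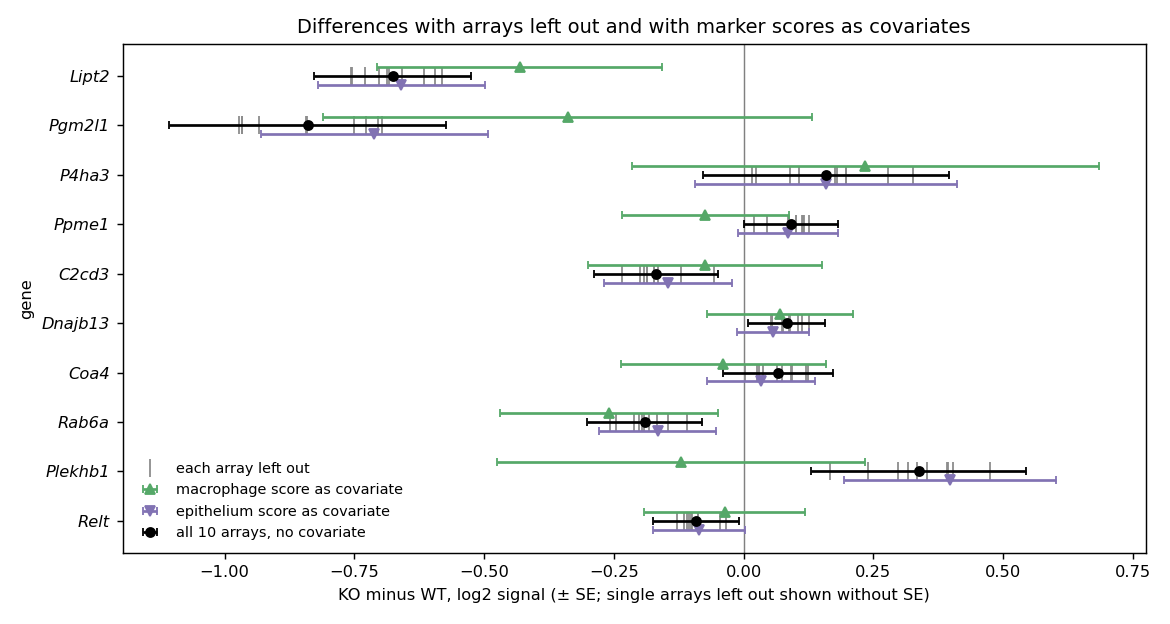
KO minus WT in log2 signal (horizontal axis) for each neighbour with all 10 arrays, with each array left out in turn, and with the epithelium or the macrophage marker score as a covariate; bars are the SE of the fit. Lipt2 stays between -0.76 and -0.58 and Pgm2l1 between -0.97 and -0.70 with single arrays left out, while the macrophage score as a covariate moves Pgm2l1 to -0.34 and Plekhb1 to -0.12.

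Whether Lipt2 and Pgm2l1 vary with the macrophage markers within a genotype was also measured. Deviations of each gene from its own genotype mean were correlated over the 10 arrays. This does not use the difference between genotypes. Against the macrophage score, r was -0.34 for Lipt2 (rho = -0.25, exact permutation p = 0.372 and 0.515) and -0.38 for Pgm2l1 (rho = -0.27, exact permutation p = 0.331 and 0.485). The genotypes differed in sign, with r = 0.32 in WT and -0.77 in KO for Lipt2, and 0.42 and -0.80 for Pgm2l1, over 5 arrays each. That difference was not tested. With the 2 arrays farthest out for the neighbour itself left aside, the pooled r was 0.04 and -0.32. Adjusted over the 80 pairs of a neighbour and a marker score, the p of r were 0.723 and 0.704.

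Among the 3 remaining neighbours before Ucp2 the genotypes overlapped. Ppme1 encodes the methylesterase that demethylates and inactivates protein phosphatase 2A. Its signal was 8.61 to 9.00 in WT and 8.85 to 9.18 in KO, with a difference of 0.09 ± 0.09 (SE). WT replicate 3 lay apart at the low end, and without it the difference was 0.02. C2cd3, which encodes a centriole protein needed for cilium assembly, ran from 7.88 to 8.19 in WT and from 7.39 to 8.10 in KO, with a difference of -0.17 ± 0.12. The low end in KO is replicate 8 alone. Without it the difference was -0.06. P4ha3 encodes a catalytic subunit of the prolyl 4-hydroxylase that acts on collagen. It read 4.18 to 5.23 in WT and 4.24 to 5.45 in KO, with a difference of 0.16 ± 0.24. With single arrays left out this ran from 0.02, without WT replicate 2 or KO replicate 8, to 0.33 without KO replicate 10.

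The 5 neighbours after Ucp2 overlapped between genotypes as well. Dnajb13, the first gene after Ucp2, encodes a chaperone-like protein of the radial spokes of sperm flagella and motile cilia, and read 4.36 to 4.65 in WT and 4.44 to 4.68 in KO (difference 0.08 ± 0.07, SE). Coa4 encodes a small mitochondrial protein whose yeast relative serves the assembly of cytochrome oxidase, and read 6.86 to 7.24 and 6.85 to 7.35 (0.07 ± 0.11). Relt, of the tumour necrosis factor receptor superfamily, read 4.88 to 5.15 and 4.65 to 5.03 (-0.09 ± 0.08). These differences were close to 1 SE or under it.

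Rab6a and Plekhb1 had wider differences. Rab6a encodes a small GTPase that directs vesicles at the Golgi apparatus. Its log2 signal was 9.64, 9.98, 9.43, 9.39 and 9.84 in WT replicates 1 to 5 and 9.51, 9.43, 9.37, 9.47 and 9.55 in KO replicates 6 to 10. All 5 KO tumours lay under the WT median, within a span of 0.179 against 0.591 in WT, and the difference was -0.19 ± 0.11 (SE). Without WT replicate 2 it was -0.11. Without WT replicate 4 it was -0.26. Plekhb1 encodes evectin-1, a membrane protein with a pleckstrin homology domain known from retina and brain. It read 6.06, 6.35, 6.12, 5.75 and 6.40 in WT replicates 1 to 5 and 6.63, 7.15, 6.24, 5.93 and 6.41 in KO replicates 6 to 10. KO replicate 7 was the highest, and without it the difference of 0.34 ± 0.21 was 0.17. Without KO replicate 9 it was 0.47.

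The means of P4ha3, Dnajb13 and Relt lay under the guide to background, and those of the other 7 neighbours above it. Dnajb13 was above it in 0 arrays, P4ha3 in 1 WT and 2 KO arrays, and Relt in 1 WT array. No detection call came with the table, and differences of such dim genes are compressed, so a small difference there says little.

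Along the chromosome the low values in KO stood together. Among the 20 measured genes on either side of Ucp2, Lipt2 and Pgm2l1 sit at places 8 and 6 before it, on either side of the potassium channel subunit gene Kcne3 (-1.03 ± 0.12, SE), and beyond Lipt2 lies the DNA polymerase subunit gene Pold3 (-0.51 ± 0.10). These 4 successive measured genes had the most negative differences in the window. Between them and Ucp2 came the pseudogene Gpx2-ps1 (0.03 ± 0.19), P4ha3, Ppme1, C2cd3 and Ucp3, the paralogue of Ucp2 in muscle (-0.03 ± 0.10). Ucp3 and Dnajb13, the genes next to Ucp2, both had means under the guide to background, so their small differences say little. The mean of P4ha3 was also under the guide, and that of Gpx2-ps1 was just above it at 5.23.

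On the other side the differences were smaller in size. The mitochondrial ribosome gene Mrpl48 lies between Coa4 and Rab6a (-0.16 ± 0.10) and Fam168a between Plekhb1 and Relt (0.31 ± 0.13). Beyond Relt the nucleotide receptor genes P2ry6 and P2ry2 had more signal in KO (0.37 ± 0.08 and 0.50 ± 0.10). Of the 30 genes in the window that are not among the 10 neighbours, 6 were at unadjusted p under 0.05, 3 lower and 3 higher in KO, where 2.55% and 2.22% of all genes were. The sixth, beside those named, was Tpbgl (-0.24 ± 0.09), 18 places before Ucp2 and under the guide to background. In 4 of the 30 the genotypes did not overlap, where this held for 0.835% of all genes. These genes too were known to differ before they were described here. The median difference was -0.01 over the 10 neighbours, 0.03 over the 30 others and -0.02 over all genes. The median size regardless of sign was 0.16, 0.12 and 0.07. These sets were not matched for signal, and differences of genes under the guide to background are compressed, so the sizes are only described.

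**Figure D3:**
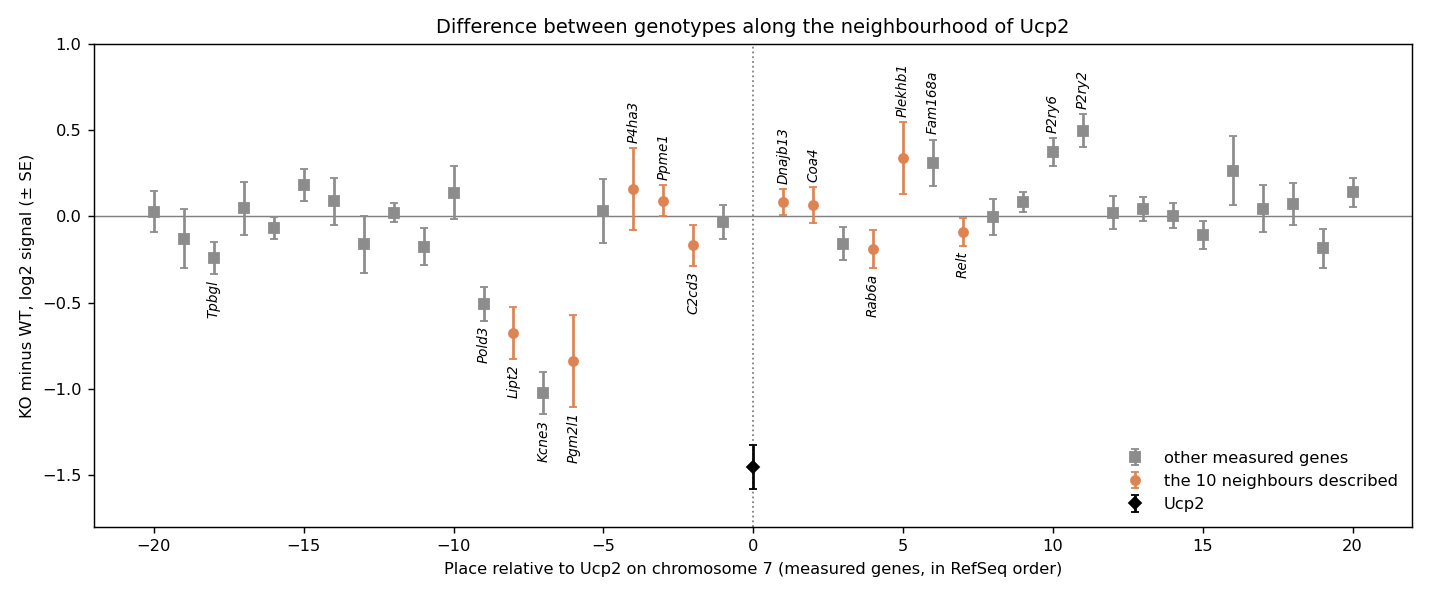
KO minus WT in log2 signal with the SE (vertical axis) against the place of each gene in the order of measured genes around Ucp2 (horizontal axis), for the 10 neighbours, the other measured genes and Ucp2. The run Pold3, Lipt2, Kcne3 and Pgm2l1 lies between -0.51 and -1.03, and Ucp2 lies at -1.45. The other genes from this run up to and including Plekhb1 lie between -0.19 and 0.34, and P2ry6 and P2ry2 at 0.37 and 0.50.

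Genes that work with the neighbours or are their relatives, but lie elsewhere, were read next and are called partner genes. Of 66 such genes in 10 lists, 64 were measured, with a median difference of -0.01. By limma 1 was at unadjusted p under 0.05 and lower in KO, Ppp2r2a, a regulatory subunit of protein phosphatase 2A (-0.16 ± 0.07, SE), 0 were higher, and 0 passed the adjusted threshold. This is 1 of 64 where 4.77% of all genes were at that level. Leaving out 1 array gave a count of 0 for WT replicate 2, for WT replicate 4 and for KO replicate 7. It gave 2 for KO replicate 8, 3 for WT replicate 5 and 4 for KO replicate 6.

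For Lipt2 the list held 8 genes of lipoate synthesis and lipoylated enzymes, of which 0 were at unadjusted p under 0.05. Dbt, the lipoylated core of the branched-chain dehydrogenase, and Lipt1, which hands lipoate on, came first (0.18 ± 0.09 and 0.14 ± 0.08, SE), Lipt1 with a mean under the guide to background. For Pgm2l1 it held 6 relatives from the phosphohexomutase family, also with 0, led by Pgm1 and Pgm5 (0.12 ± 0.10 and 0.33 ± 0.27). At that level stood 4.77% of all genes, so 0 in lists this short says little, and nothing is read from these counts.

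The remaining lists gave 0 members at that level apart from that of protein phosphatase 2A, where the catalytic subunit gene Ppp2cb had -0.21 ± 0.12 (SE). Genes of collagen hydroxylation were led by Plod3 and Plod1 (0.20 ± 0.12 and 0.20 ± 0.17). Genes of the centriole and of cilium assembly were led by Ift20 and Cep120 (0.16 ± 0.08 and -0.07 ± 0.06). Radial spoke and motile cilium genes were led by Rsph9 and Dnah5 (-0.10 ± 0.06 and -0.06 ± 0.05), both under the guide to background like Dnajb13. Among assembly factors of cytochrome oxidase Sco2 and Coa3 came first (0.13 ± 0.15 and -0.07 ± 0.10). Among relatives and effectors of Rab6a these were Ric1 and Rgp1, which together activate it (-0.10 ± 0.07 and 0.12 ± 0.09). Plekhb2, the relative of Plekhb1, had 0.05 ± 0.10, and the Relt relatives Rell2 and Rell1 had -0.18 ± 0.11 and -0.13 ± 0.13.

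Whether the neighbours vary together from tumour to tumour was tested within genotypes. Over 45 pairs of neighbours, r of the deviations from genotype means ran from -0.80 to 0.70 with a median of 0.02, and 23 of the 45 were positive. In 7 pairs the unadjusted p was under 0.05 and in 0 after adjustment over the 45 pairs (exact permutation within genotypes, two-sided, 14400 arrangements, lowest adjusted p = 0.248). Lipt2 and Pgm2l1 had r = 0.43 and rho = 0.53 (exact permutation p = 0.236 and 0.149, adjusted p = 0.542 and 0.47). The r was 0.62 without KO replicate 7 and WT replicate 4, the 2 arrays farthest out for Lipt2. In each such check the 2 arrays were picked by the first-named neighbour alone, so far values of the other variable can remain.

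Pgm2l1 and C2cd3 had the highest r, 0.70 (rho = 0.81, exact permutation p = 0.0112 and 0.00403, adjusted p = 0.248 and 0.141), and it was 0.49 without KO replicate 8 and WT replicate 5. Ppme1 and Relt had the lowest, -0.80 (rho = -0.84, exact permutation p = 0.0208 and 0.0183, adjusted p = 0.248 and 0.152), or -0.77 without WT replicate 3 and KO replicate 6. Ppme1 and C2cd3, whose promoter windows share the capital letters printed above, had r = 0.34 and rho = 0.47 (exact permutation p = 0.333 and 0.155, adjusted p = 0.6 and 0.47), and r was 0.49 without the same 2 arrays. With 10 arrays this r could not be told from 0.

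**Figure D4:**
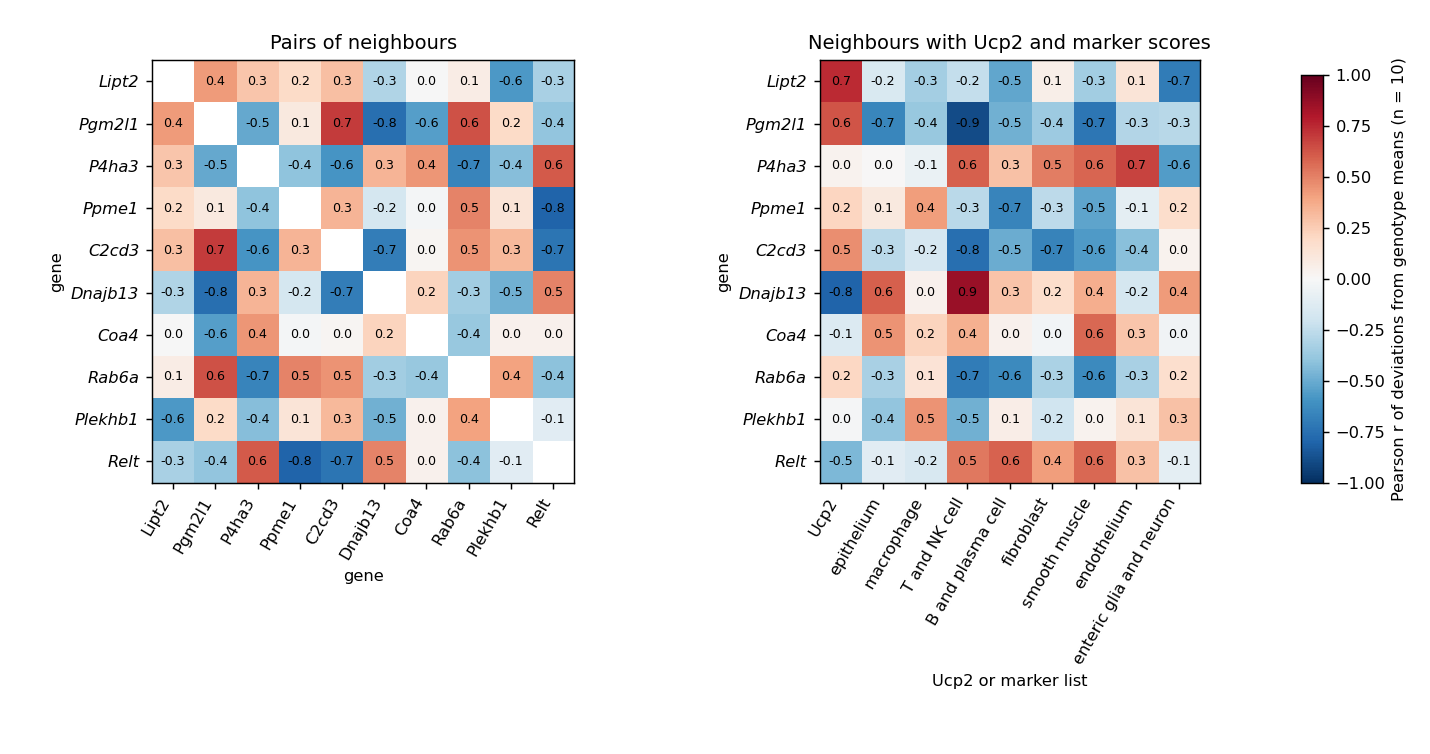
Pearson r of deviations from genotype means over 10 arrays, for pairs of neighbours (left) and for each neighbour with Ucp2 and with 8 marker scores (right), from -1 in blue to 1 in red. Both signs are about equally common among the pairs. On the right the most extreme value is with Ucp2 for Lipt2 and with the T and NK cell score for Pgm2l1. For Dnajb13 it is with that score, followed by Ucp2.

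Against Ucp2 itself, Lipt2 had r = 0.75 and rho = 0.84 (exact permutation p = 0.0142 and 0.00667, or 0.0712 and 0.0667 adjusted over the 10 neighbours), which misses 0.05 after adjustment. This comparison was added after the values were seen. Within WT alone r was 0.92 and within KO alone 0.49, over 5 arrays each, and without KO replicate 7 and WT replicate 4 it was 0.72 (exact permutation p = 0.0938). Pgm2l1 had r = 0.63 with Ucp2 (rho = 0.70, exact permutation p = 0.0460 and 0.0351, adjusted p = 0.153 and 0.117), or 0.52 without KO replicate 8 and WT replicate 5. Dnajb13 ran the other way, with r = -0.80 (rho = -0.78, exact permutation p = 0.00597 and 0.0138, adjusted p = 0.0597 and 0.0688), or -0.60 without WT replicate 1 and KO replicate 8.

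Of the 80 pairs of a neighbour and a marker score, 10 had an unadjusted exact permutation p of r under 0.05. After adjustment 0 passed by r and 1 by rho. That one was Dnajb13 with the T and NK cell score, with rho = 0.96 (exact permutation p = 0.000208, adjusted p = 0.0167) and r = 0.86 (exact permutation p = 0.00347, adjusted p = 0.252). Without WT replicate 1 and KO replicate 8 r was also 0.86. Dnajb13 lay under the guide to background throughout. The T and NK cell score ran from -0.460 to 0.055 in WT and from -0.231 to 0.495 in KO. Of its 8 markers, Cd3d and Gzma had means under the guide to background.

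Pgm2l1 had the lowest r with that score, -0.89 (rho = -0.82, exact permutation p = 0.00722 and 0.0119, adjusted p = 0.252 and 0.291), or -0.81 without KO replicate 8 and WT replicate 5. C2cd3 and Rab6a had r of -0.75 and -0.70 with it (rho = -0.77 and -0.64, exact permutation p of r = 0.00944 and 0.0151, adjusted p = 0.252 and 0.303), or -0.75 and -0.73 with the 2 farthest arrays left aside. None of these 3 passed after adjustment, and the part of such cells in the differences between genotypes was not tested. Other scores also had unadjusted p under 0.05 with neighbours. The smooth muscle score did so with Pgm2l1 and Rab6a (r = -0.72 and -0.64, exact permutation p = 0.0303 and 0.0194, adjusted p = 0.396 and 0.31).

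For each of the 7 brighter neighbours the genes with the most similar deviations over the 10 arrays were looked up among 12627 genes above the guide to background. With so many genes and 10 arrays high values arise readily, so they are a description. Lipt2 was most like Msto1, a gene of mitochondrial distribution, and Pik3r2, a regulatory subunit of phosphoinositide 3-kinase (r = 0.98 and 0.97). Pgm2l1 was most like Erich3 and Lef1, a transcription factor of the Wnt pathway (r = 0.99 and 0.98), and neither of these differed between genotypes by more than its SE (-0.06 ± 0.39 and 0.02 ± 0.35). Coa4 was most like the mitochondrial genes Mief2 and Ndufaf5, an assembly factor of respiratory complex I (r = 0.95 and 0.94).

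The others were Eif1a and Rint1 for Ppme1 (r = 0.95 and 0.94), Dipk1b and Rnf187 for C2cd3 (both r = 0.94), Skap2 and Phldb2 for Rab6a (r = 0.95 and 0.94), and Pcmtd2 and Commd8 for Plekhb1 (r = 0.91 and 0.88). Rint1 encodes a protein of vesicle transport between the Golgi apparatus and the endoplasmic reticulum, and Eif1a a translation initiation factor. None of the 14 genes lies on chromosome 7.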

How the data were processed

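Per the labels' protocols, 240 ng of total RNA from each tumour went through reverse transcription, amplification and biotin labelling, with 1 array per sample. The authors deposited log2 signals, 1 per probe set and array. RMA and Partek are named in the submitters' processing notes. The sources used here name no version or genome build, and base 2 was inferred from the range of the values. RMA equalises arrays, so a common shift could not be seen.

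The table holds 23747 probe sets, of which 23111 carry 1 gene symbol, 0 several, and 636 are not listed in the annotation. RefSeq gave gene order for 23075 by gene number. No 2 arrays held identical values (r of 0.964 to 0.993).

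KO was compared with WT by limma 3.58.1 (lmFit, eBayes, no covariate) in R 4.3.3 on all named probe sets, with Benjamini-Hochberg adjustment. The fit was also run on 5 simulated data sets whose genes vary independently, so it says nothing of error rates among genes that vary together. Correlations used Python 3.11.15 and numpy 2.4.6, permuting arrays within genotypes. Differences are KO minus WT with the SE of the fit. Alternatives left out each array, rescaled arrays, left out dim probe sets, took all probe sets, changed the variance model or weights, or added a marker score.

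The members, lists and markers were chosen with earlier results of these data known. Named are all members, flanking genes between them or at unadjusted p under 0.05, up to 2 genes per list with the smallest p, and the 2 most similar genes per bright member, leaving out predicted, microRNA, receptor and antigen receptor genes.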

Additional observations from a re-analysis of the deposited data

Results flagged for a closer look

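The values of the 10 neighbours and of Ucp2 were screened for arrays far from the others of their genotype, in 22 groups of 5 arrays, where chance gives about 1 in 20. One stood out. Ppme1 read 8.61 in WT replicate 3, and the nearest WT tumour read 8.94, a gap of 0.848 of the whole range of the group against a critical value of 0.71. Without WT replicate 3 the Ppme1 difference of 0.09 was 0.02.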

How the results depend on the processing

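Over 177 combinations of a neighbour and an alternative, 174 kept the sign of the difference and 174 moved by less than the spread between tumours. The macrophage score as a covariate moved 3 by more: Pgm2l1 to -0.34, Ppme1 to -0.07 and Plekhb1 to -0.12. It also took the median over neighbours from -0.01 to -0.074 and the number at unadjusted p under 0.05 from 2 to 0. That score separated the genotypes, so the fit cannot tell genotype from score, and why the values moved was not tested. Leaving out dim probe sets, which drops 3 neighbours, took that median to -0.17. With single arrays left out the median ran from -0.05 to 0.0055, the number from 2 to 3, and the number without overlap was 1 throughout. The number of all genes at adjusted p under 0.05 was 0 over the named probe sets. It was 2 without dim probe sets and 3 with all probe sets, which take in the row of Ucp2. An intensity trend with robust estimation gave 1, and single arrays left out gave 0 to 2. The number of partner genes at unadjusted p under 0.05 was 1, against 0 with centred arrays or the intensity trend, 2 after quantile normalization or with array weights, and 0 to 4 with single arrays left out; the cause was not tested. Other flanking genes numbered 5 to 7 against 6, and Ucp2 stayed between -1.57 and -1.39 and past the adjusted threshold. The correlations had 0 adjusted calls by r with all arrays and without the 2 farthest. No paired analysis was possible because the WT replicates 1 to 5 and the KO replicates 6 to 10 share no number. Dim neighbours are limited by signal near background.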
